A study of Mus musculus with 6 samples.

Results

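The genes described here are 38 genes of the endothelial lineage, followed through RNA-seq counts of whole mouse embryos. They were taken by name, symbols being matched to Ensembl gene identifiers, and all 38 were found once among the 55401 genes of the count table. VEGF ligands and receptors were not among them. Of the 38 genes, 37 were among the 16784 genes that passed the count filter. The exception was *Etv2*.

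Both groups were whole embryos of embryonic stage E10.5. WT embryos were wild-type littermates of the mutants and carried the unmodified *Igf2* locus. 5C embryos carried additional tandem copies of *Mir483* placed in its own host gene, *Igf2*, by targeting of embryonic stem cells and passed on by chimeric males. There were 3 libraries of each genotype, every one described as a pool of 2 male embryos. The insertion is constitutive, so a change in endothelial RNA could not be assigned to the endothelium itself, and in a whole embryo a fall in the number of endothelial cells and a fall in RNA per cell cannot be told apart. P-values measure the spread between these 6 pools.

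Endothelial cells line all blood vessels. In the early embryo they arise from mesodermal progenitors under the ETS factor *Etv2*, are held as a lineage by *Erg*, *Fli1* and SoxF factors, and join through VE-cadherin (*Cdh5*) and claudin-5 (*Cldn5*). Midgestation is the time at which arteries and veins separate, Tie and BMP9 receptor signals stabilize the vessel wall, and the circulation starts to carry the embryo's growth. MicroRNAs act on such genes by pairing of their seed, bases 2 to 8, with sites that are mostly in the 3′ UTR of a messenger RNA.

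*Mir483* gives rise to a pair of mature microRNAs, shown here because their seeds define the sites looked for in the endothelial genes. In GRCm38.p6 miR-483-3p lies at chr7:142654932-142654952 and miR-483-5p at chr7:142654968-142654989, both on the minus strand within *Igf2*. The sequences are from RefSeq, and capitals mark the seed.
mmu-miR-483-3p: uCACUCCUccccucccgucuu
mmu-miR-483-5p: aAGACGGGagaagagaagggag

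The letters AGGAGTG, which pair with the seed of miR-483-3p, were present in the annotated 3′ UTR of 5 of the 37 endothelial genes tested, or 13.5%. The share over all tested coding genes with a 3′ UTR was 12.5%, or 1730 of 13886 genes. No endothelial gene held CCCGTCT, which pairs with the seed of miR-483-5p, against 3.44% of the coding genes. The 5 sites are printed in the direction of the transcript, with 10 bases on each side and the match in capitals. They lie at chr8:8619939-8619965 on the minus strand (*Efnb2*), chr4:94874737-94874763 on the plus strand (*Tek*), chr8:104143068-104143094 on the plus strand (*Cdh5*), chr16:95360703-95360729 on the minus strand (*Erg*) and chr2:84331669-84331695 on the minus strand (*Calcrl*), in GRCm38. Each match was followed by an A except that in *Erg*.
Efnb2: agatgtgtggAGGAGTGaggaggtgct
Tek: ctaggaatttAGGAGTGatgtgtgaca
Cdh5: ctgatttccaAGGAGTGacaccagact
Erg: gtgcctcgtgAGGAGTGgaaacggttg
Calcrl: agtggatgagAGGAGTGactcagccct
Log2 fold changes of these genes, 5C against WT, were -0.15 for *Efnb2*, -0.17 for *Tek*, -0.01 for *Cdh5*, 0.05 for *Erg* and 0.08 for *Calcrl*, and the 95% interval of each included 0. A seed match is a description of the sequence and does not show that the site is used.

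Libraries held between 6357343 and 19151368 counts, and WT library 3 was the shallowest. A floor of 3 counts in a library lay between 0.157 and 0.479 CPM (counts scaled to the library total), which covers counting error only. *Mir483* itself was at 0.577, 0.429 and 0.319 CPM across WT libraries, against 5.15, 4.35 and 2.56 CPM across 5C libraries, so the edit could be seen in each 5C library. Behind these values were 11, 5 and 2 WT counts and 85, 51 and 36 5C counts. The value of WT library 3 lay under the floor of that library. No library matched a pool of males alone, since *Xist*, the transcript of the inactive X chromosome, was at 494.8 to 913.9 CPM in all 6. The Y-linked *Ddx3y* was at 41.6 to 55.9 CPM in the libraries numbered 1 and 3, but at 0.944 CPM in WT library 2 and at 0 in 5C library 2. WT library 1 was rich in yolk sac endoderm transcripts, whose 8 markers summed to 6039 CPM there, against 118.9 to 1170 CPM in the other libraries. Genes over 5 CPM and more than 4-fold above every other library numbered 47 in WT library 1, 2 in WT library 2, 17 in WT library 3 and 0 in the 5C libraries.

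The endothelial signature was present in every library at a similar level. The 8 endothelial markers *Pecam1*, *Cdh5*, *Tek*, *Tie1*, *Emcn*, *Esam*, *Cldn5* and *Erg* summed to between 257.0 and 279.5 CPM in WT and between 257.1 and 272.9 CPM in 5C. The highest of the 6 values was less than 1.5 times the lowest for 29 of the 38 genes. It was more than 2 times the lowest for *Hey1*, *Stab2* and *Etv2*.

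**Figure D1:**
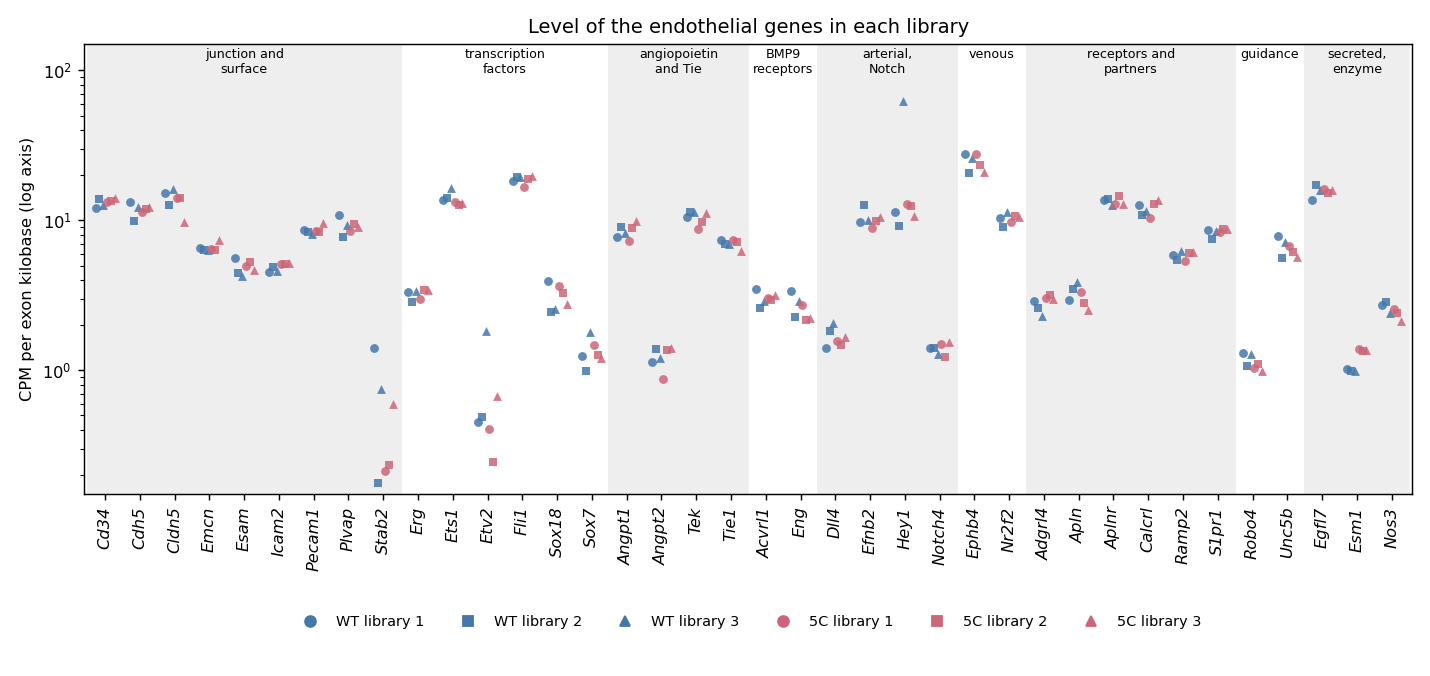
Level of each endothelial gene in each of the 6 libraries, as CPM per kilobase of exon on a log axis, with genes grouped by role. *Ephb4* lies highest and *Stab2* lowest by the mean of the 6 libraries, most genes form a tight cluster of 6 points, and *Hey1*, *Stab2* and *Etv2* spread widely.

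The endothelial genes differed little between genotypes. None of the 37 tested genes was a differentially expressed gene (DEG: adjusted p under 0.05 and fold change over 1.5) in edgeR's quasi-likelihood test, where 0.0% of all tested genes were, and the smallest adjusted p among the 37 was 0.781. Since no gene of the table was called, the lack of a call does not set the endothelial genes apart. The adjusted p of 0.781 was shared by genes with much smaller unadjusted p-values in that test, such as the smooth muscle actin gene *Acta2* (0.000518). DESeq2 and limma-voom also called none of the endothelial genes, while edgeR without a count filter called *Hey1* and *Stab2*, whose values varied widely between libraries. At an unadjusted p under 0.05 there was 1 endothelial gene, *Esm1*, or 2.7%, against 6.02% of all tested genes (DESeq2 gave 0 endothelial genes and limma-voom gave 1). The 3 WT and 3 5C values did not overlap for 4 genes, or 10.8%, against 11.4% of all tested genes. *Esm1*, *Adgrl4* and *Icam2* lay higher in 5C, and *Ets1* lower.

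Directions were evenly split, with 18 genes lower and 19 higher in 5C, and the median log2 fold change was 0.0008, against -0.0024 over all tested genes. The log2 fold change was within 0.1 of 0 for 22 genes and within 0.3 for 34. The 95% interval of the change included 0 for 36 genes and lay inside 1.5-fold in either direction for 31. For the other 6 genes, *Stab2*, *Hey1*, *Eng*, *Apln*, *Sox18* and *Esm1*, the interval reached past 1.5-fold. Leaving out WT library 2 gave 5 endothelial genes at an unadjusted p under 0.05 (*Hey1*, *Stab2*, *Eng*, *Unc5b* and *Ets1*, each lower in 5C), or 13.5%, where 10.4% of all genes in that fit were past the same threshold. Leaving out WT library 1 gave 3, or 8.11% against 4.63% of all genes, and leaving out 5C library 3 gave 2, or 5.41% against 4.49%. Without WT library 3, 5C library 1 or 5C library 2 there were 0 endothelial genes, against 5.11%, 8.66% and 2.62% of all genes. None of these was a DEG.

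**Figure D2:**
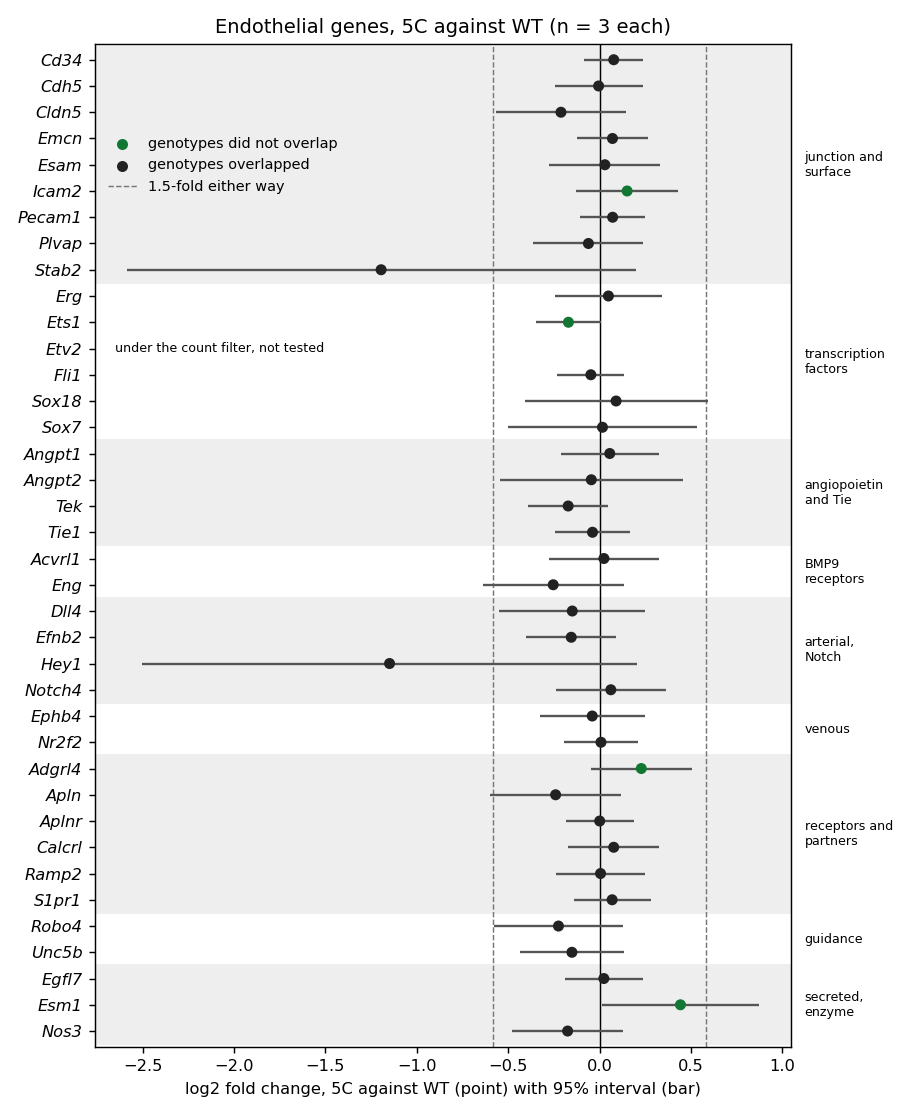
Log2 fold change of 5C against WT (point) with its 95% interval (bar) for each endothelial gene by role, with dashed lines at 1.5-fold either way and the genes whose genotypes did not overlap in green. The intervals of 36 of 37 genes cross 0, and those of *Stab2* and *Hey1* are the widest.

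Across libraries, the median deviation of the 37 genes from their mean over the 6 libraries, on the log2(CPM + 0.5) scale, was 0.02, -0.09 and 0.03 in WT and -0.02, 0.01 and 0.04 in 5C. The same medians over all tested genes ran from -0.0062 to 0.0022. WT library 2 was therefore the one in which endothelial genes sat lowest, with 13 of the 37 above their mean, and the 5C medians lay within the WT range except that of 5C library 3. With both libraries numbered 2 left out, the median log2 fold change of the endothelial genes was -0.07.

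**Figure D3:**
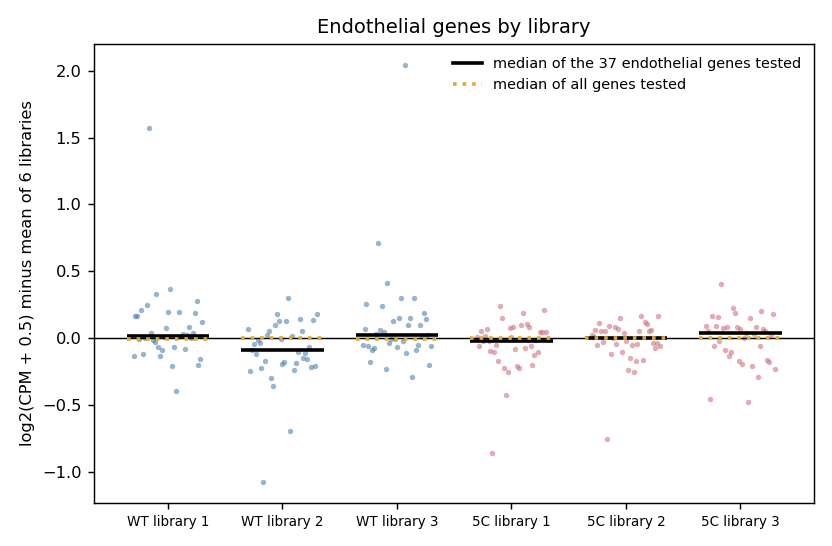
Deviation of each endothelial gene from its mean over the 6 libraries, log2(CPM + 0.5), by library, with the median of the 37 endothelial genes as a solid bar and that of all tested genes as a dotted bar. Medians of the endothelial genes run from -0.09 in WT library 2 to 0.04 in 5C library 3, and the points farthest from 0 are *Hey1* in WT library 3 and *Stab2* in WT library 1.

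Junction and surface proteins came first among the roles. *Pecam1*, which encodes the adhesion molecule CD31, was at 53.5, 52.0 and 50.9 CPM across WT libraries, against 52.5, 52.4 and 59.6 CPM across 5C libraries. *Cdh5*, the cadherin of endothelial adherens junctions, was at 55.5, 41.6 and 51.9 CPM across WT libraries, against 47.4, 49.7 and 51.3 CPM across 5C libraries. Both genes thus had overlapping genotypes, and the lowest *Cdh5* value belonged to WT library 2. Their log2 fold changes were 0.07 with a 95% interval of -0.10 to 0.25 and -0.01 with an interval of -0.25 to 0.24. Of the 9 genes in this role, 4 were lower and 5 higher in 5C.

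*Icam2*, an adhesion molecule on resting endothelium (ENSMUSG00000001029, chr11:106377656-106388075), was at 8.55, 9.27 and 8.78 CPM across WT libraries, against 9.82, 9.73 and 9.97 CPM across 5C libraries. Every 5C value lay above every WT value. On the log2 scale 5C differed by 0.15 ± 0.12 (SE), with an unadjusted p of 0.252 in edgeR's quasi-likelihood test, a difference within the spread between replicates by that test. *Cd34*, *Emcn* and *Esam*, further glycoproteins of the endothelial surface and junctions, had log2 fold changes between 0.03 and 0.08, and *Plvap*, of fenestral and caveolar diaphragms, had -0.06. *Cldn5*, the claudin of endothelial tight junctions, averaged 20.8 ± 2.54 CPM over WT and 17.9 ± 3.52 CPM over 5C libraries (SD, n = 3 each), and its lowest value, 13.9 CPM, was in 5C library 3. Its log2 fold change was -0.21, and -0.06 without that library.

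*Stab2* (ENSMUSG00000035459, chr10:86841198-87008025 on the minus strand) encodes the hyaluronan receptor stabilin-2 of sinusoidal endothelium and had the lowest mean level per exon kilobase of the 38 genes. It was at 12.3, 1.55 and 6.54 CPM across WT libraries, against 1.88, 2.05 and 5.197 CPM across 5C libraries. High values thus occurred in both genotypes, in WT libraries 1 and 3 and in 5C library 3, and the genotypes overlapped. The difference of 5C from WT was -1.20 ± 0.62 (SE) on the log2 scale, with an unadjusted p of 0.0845 (adjusted p 0.781) in edgeR's quasi-likelihood test. Without WT library 1 it was -0.26, and without 5C library 3 it was -1.83. The same 3 libraries held the most yolk sac endoderm transcript, with 6039 CPM in WT library 1, 424.5 CPM in WT library 3 and 1170 CPM in 5C library 3, against 180.2 CPM in WT library 2, 118.9 CPM in 5C library 1 and 121.3 CPM in 5C library 2. The part of that tissue in the *Stab2* level was not tested.

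Transcription factors of the lineage were next. *Erg* was at 11.5, 9.87 and 11.6 CPM across WT libraries, against 10.4, 11.9 and 11.8 CPM across 5C libraries. *Fli1*, a related ETS factor and one of the 3 highest genes per exon kilobase, was at 64.0, 67.9 and 67.6 CPM across WT libraries, against 58.1, 65.6 and 69.3 CPM across 5C libraries. Genotypes overlapped in both, and the log2 fold changes were 0.05 and -0.05. *Sox7* was at 4.09, 3.26 and 5.90 CPM across WT libraries, against 4.85, 4.18 and 3.99 CPM across 5C libraries. *Sox18*, its SoxF partner, was at 6.35, 3.95 and 4.15 CPM across WT libraries, against 5.94, 5.29 and 4.49 CPM across 5C libraries. For both SoxF genes the 5C values lay inside the WT range, and the 95% intervals were -0.50 to 0.53 and -0.41 to 0.59 on the log2 scale.

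*Ets1* (ENSMUSG00000032035, chr9:32636221-32757820 on the plus strand), an ETS factor active in endothelium and in other embryonic cells, was the 1 endothelial gene whose 5C values all lay below the WT values. It was at 116, 119 and 139 CPM across WT libraries, against 113, 108 and 110.2 CPM across 5C libraries. The closest values, 116 CPM in WT library 1 and 113 CPM in 5C library 1, were near each other, and WT library 3 was the highest. Its log2 fold change was -0.17 ± 0.08 (SE), with an unadjusted p of 0.0588 (adjusted p 0.781) in edgeR's quasi-likelihood test. Without WT library 3 it was -0.10.

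*Etv2*, the pioneer factor that starts the endothelial and blood programme and is switched off soon afterwards, was under the count filter. It had 9, 6 and 12 counts in WT and 7, 3 and 10 counts in 5C, or 0.472, 0.515 and 1.91 CPM against 0.424, 0.256 and 0.712 CPM. WT library 3 and 5C library 3 were the highest of their genotypes, the lowest value was at the floor of 3 counts, and the genotypes overlapped.

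The 4 ETS genes bind a GGAA core, and since they are themselves on the endothelial list, promoters of the 38 genes were searched for the letters CAGGAAG on either strand. Of the 38 genes, 21 had a RefSeq promoter of GRCm38.p6, from 250 bases before to 50 after a start. The letters were in 8 of them (*Apln*, *Calcrl*, *Cd34*, *Egfl7*, *Emcn*, *Erg*, *Notch4* and *Robo4*), or 38.1%, where 14.8% of 27025 genes held them. The variant CCGGAAG was in none, against 9.93%. AACAAT, read by SOX factors, was in 4 of the 21 against 12.2% of genes, and GATAAG, read by GATA factors, was in 4 against 8.58%, searched in the same way. The 4 windows whose match lay closest to the start are shown as an illustration of promoters that hold these letters, on the strand of the gene, with the match or its complement in capitals. They lie at chr16:95459357-95459413 on the minus strand (*Erg*), chr2:26581009-26581065 on the plus strand (*Egfl7*), chr9:37401897-37401953 on the plus strand (*Robo4*) and chr2:84425302-84425358 on the minus strand (*Calcrl*).
Erg: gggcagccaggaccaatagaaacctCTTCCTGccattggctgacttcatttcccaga
Egfl7: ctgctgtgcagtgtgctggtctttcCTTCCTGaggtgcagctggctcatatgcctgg
Robo4: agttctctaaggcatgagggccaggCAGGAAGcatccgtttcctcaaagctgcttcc
Calcrl: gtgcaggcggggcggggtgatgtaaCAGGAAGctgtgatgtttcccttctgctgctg
These matches are letters in a window and say nothing of binding. A gene was counted if any of its promoters held the letters. The number of promoters per gene was not matched between the sets, and the 27025 genes were not limited to those tested here. Among the 8 genes the log2 fold changes ran from -0.24 for *Apln* to 0.08 for *Calcrl* and *Cd34*.

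The angiopoietin pathway keeps vessels quiescent through the receptor *Tek* (Tie2) and its partner *Tie1*. *Tek* was at 49.7, 53.9 and 53.9 CPM across WT libraries, against 41.3, 46.0 and 52.5 CPM across 5C libraries. The 5C values overlapped WT only through 5C library 3, and the log2 fold change was -0.17 ± 0.10 (SE), with an unadjusted p of 0.11 in edgeR's quasi-likelihood test. Without 5C library 3 the change was -0.27. *Tie1* was at 36.3, 34.3 and 34.3 CPM across WT libraries, against 36.4, 35.4 and 30.5 CPM across 5C libraries, a log2 fold change of -0.04.

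The ligands gave no difference beyond their spread either. *Angpt1*, the activating ligand made by mural cells and myocardium, was at 40.1, 47.3 and 42.9 CPM across WT libraries, against 37.6, 46.4 and 51.5 CPM across 5C libraries. *Angpt2*, the context-dependent antagonist made by endothelial tips, was at 4.197, 5.15 and 4.47 CPM across WT libraries, against 3.21, 5.04 and 5.197 CPM across 5C libraries. In both, 5C library 1 was the lowest and 5C library 3 the highest of all 6. Log2 fold changes were 0.06 and -0.05, with standard errors of 0.12 and 0.22.

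The receptors of BMP9, *Eng* and *Acvrl1* (ALK1), are the genes affected in hereditary haemorrhagic telangiectasia. The co-receptor *Eng* was at 13.6, 9.19 and 11.6 CPM across WT libraries, against 11.1, 8.79 and 9.04 CPM across 5C libraries. The kinase *Acvrl1* was at 14.8, 11.2 and 12.3 CPM across WT libraries, against 12.97, 12.6 and 13.5 CPM across 5C libraries. In both genes WT library 1 was the highest and WT library 2 the lowest of WT, and the genotypes overlapped. Log2 fold changes were -0.25 with a 95% interval of -0.64 to 0.13 for *Eng* and 0.02 with an interval of -0.28 to 0.32 for *Acvrl1*. *Eng* gave -0.09 without WT library 1 and -0.40 without WT library 2. Of 15 further genes of the pathway (ligands, type II receptors, SMADs and ID factors), 9 were lower and 6 higher, with a median log2 fold change of -0.0022. In edgeR's quasi-likelihood test 0 of the 15 had an unadjusted p under 0.05, against 6.02% of all tested genes. The BMP target *Id2* had the smallest p of the 15 in that test, 0.121, with overlapping genotypes. It averaged 116 ± 7.48 CPM over WT and 132 ± 18.8 CPM over 5C libraries (SD, n = 3 each).

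Arterial fate is driven by Notch signalling. The arterial ligand *Dll4* was at 5.46, 7.04 and 7.98 CPM across WT libraries, against 5.999, 5.72 and 6.41 CPM across 5C libraries. The endothelial receptor *Notch4* was at 11.3, 11.3 and 10.4 CPM across WT libraries, against 12.1, 9.90 and 12.5 CPM across 5C libraries. Neither separated the genotypes, and their log2 fold changes were -0.15 and 0.06. *Dll4* gave -0.04 without WT library 3 and -0.30 without WT library 1. The ephrin *Efnb2*, which marks arteries, was at 67.1, 86.7 and 69.1 CPM across WT libraries, against 60.5, 67.6 and 72.3 CPM across 5C libraries. Its receptor *Ephb4*, which marks veins, was at 129.3, 95.3 and 120.5 CPM across WT libraries, against 128.7, 109 and 97.6 CPM across 5C libraries. *Ephb4* was the highest gene per exon kilobase, and for neither partner did the genotypes separate, with log2 fold changes of -0.15 and -0.04. Without WT library 2, which held the highest *Efnb2* value, *Efnb2* was at -0.03. *Nr2f2* (COUP-TFII), which holds venous fate, averaged 89.1 ± 10.2 CPM over WT and 89.4 ± 4.29 CPM over 5C libraries (SD, n = 3 each).

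*Hey1* (ENSMUSG00000040289, chr3:8663359-8667256 on the minus strand), a Notch target that acts in arteries, heart, somites and brain, was at 37.04, 30.1 and 203 CPM across WT libraries, against 41.8, 41.0 and 34.95 CPM across 5C libraries. WT library 3 stood alone, more than 4-fold above every other library, and the other 5 values lay close together. The log2 fold change of -1.15 ± 0.60 (SE), with an adjusted p of 0.781 in edgeR's quasi-likelihood test, rested on that library: without it the change was 0.21. *Hey1* was the 1 endothelial gene among the 17 genes that stood apart in WT library 3. Another of them, *Nrxn2*, a neuronal adhesion gene picked out once its values were known, reached 1188 CPM there and 6.69 to 20.2 CPM elsewhere.

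Further genes of the Notch pathway were read from a fixed list. Of 12 receptors, ligands, modifiers and targets, 3 were lower and 9 higher in 5C, and their summed level was 674.8 to 701.3 CPM in WT and 667.7 to 699.2 CPM in 5C. Unadjusted p-values under 0.05 were reached by 2 of the 12 in edgeR's quasi-likelihood test, against 6.02% of all tested genes. The feedback inhibitor *Nrarp*, a Notch target, was at 81.7, 80.1 and 74.5 CPM across WT libraries, against 96.5, 90.4 and 88.7 CPM across 5C libraries, so that WT library 3 was the lowest of all and the genotypes did not overlap. Its log2 fold change of 0.22 ± 0.07 (SE) had an unadjusted p of 0.0115 (adjusted p 0.781). The receptor *Notch2* was at 149, 127 and 157 CPM across WT libraries, against 118, 115 and 124 CPM across 5C libraries, with a log2 fold change of -0.28 that had an unadjusted p of 0.00879 (adjusted p 0.781).

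**Figure D4:**
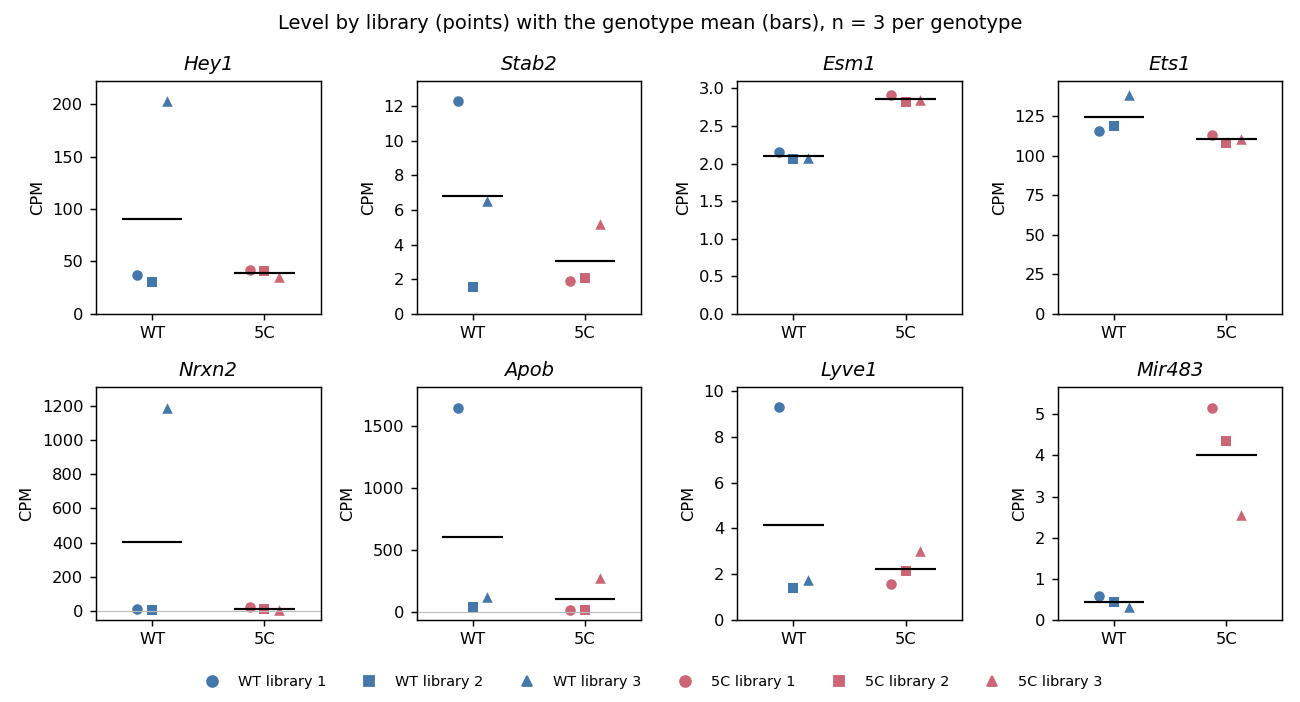
Level in CPM by library (points) with the genotype mean (bars, n = 3) for *Hey1*, *Stab2*, *Esm1*, *Ets1* and for *Nrxn2*, *Apob*, *Lyve1* and *Mir483*. *Hey1* and *Nrxn2* are high in WT library 3 alone, *Stab2*, *Apob* and *Lyve1* are highest in WT library 1, and *Esm1*, *Ets1* and *Mir483* separate the genotypes.

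G protein-coupled receptors and their partners read flow, lipid and peptide signals in the vessel wall. *Calcrl*, the adrenomedullin receptor, was at 62.0, 52.7 and 56.5 CPM across WT libraries, against 50.9, 63.0 and 67.2 CPM across 5C libraries. *Ramp2*, the co-receptor it needs at the cell surface, was at 19.4, 17.9 and 20.7 CPM across WT libraries, against 17.7, 20.1 and 20.3 CPM across 5C libraries. Their values overlapped, with log2 fold changes of 0.08 and 0.01. *Ramp2* shares 1103 of its 3301 exon bases with *Vps25* on the same strand, so its counts are uncertain. *S1pr1*, the receptor of sphingosine 1-phosphate, averaged 24.98 ± 1.81 CPM over WT and 26.2 ± 0.716 CPM over 5C libraries (SD, n = 3 each).

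Apelin and its receptor guide the growth of veins and of the heart. The peptide gene *Apln*, on chromosome X, was at 9.34, 10.99 and 12.3 CPM across WT libraries, against 10.48, 8.79 and 7.97 CPM across 5C libraries. Its receptor *Aplnr* was at 50.5, 51.4 and 46.6 CPM across WT libraries, against 47.5, 54.0 and 47.5 CPM across 5C libraries. Genotypes overlapped in both, and the log2 fold changes were -0.24 with a standard error of 0.16 and 0.0008 with a standard error of 0.08. Of the 6 further genes of the adrenomedullin and apelin pathways 5 were tested, with 2 lower and 3 higher. Of 7 genes of the sphingosine 1-phosphate pathway 6 were lower and 1 higher, and their median was -0.11 on the log2 scale (-0.18 without 5C library 1 and -0.06 without 5C library 3). None of these 12 genes had an unadjusted p under 0.05 in edgeR's quasi-likelihood test, against 6.02% of all tested genes.

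*Adgrl4* (ELTD1; ENSMUSG00000039167, chr3:151437887-151545086 on the plus strand), an adhesion G protein-coupled receptor of growing vessels, was at 13.3, 12.0 and 10.53 CPM across WT libraries, against 14.0, 14.6 and 13.8 CPM across 5C libraries. The genotypes did not overlap, though 13.3 CPM in WT library 1 lay close to 13.8 CPM in 5C library 3. On the log2 scale they differed by 0.23 ± 0.12 (SE), with an unadjusted p of 0.0937 in edgeR's quasi-likelihood test.

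Guidance receptors were lower in 5C by small amounts. *Robo4*, the endothelial roundabout receptor and one of the 3 lowest genes per exon kilobase, was at 6.87, 5.67 and 6.86 CPM across WT libraries, against 5.51, 5.81 and 5.27 CPM across 5C libraries. *Unc5b*, which binds netrins and FLRT proteins and also Robo4, averaged 43.1 ± 7.37 CPM over WT and 38.8 ± 3.06 CPM over 5C libraries (SD, n = 3 each). Log2 fold changes were -0.22 and -0.15, both within the spread between replicates, since WT library 2 lay in or below the 5C range. *Unc5b* gave -0.03 without WT library 1 and -0.28 without WT library 2. Of 10 ligands and partners (slits, netrins, roundabouts and others), 5 were lower and 5 higher.

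Of the secreted proteins and the enzyme, 1 gene separated the genotypes. *Esm1* (endocan; ENSMUSG00000042379, chr13:113209659-113218098 on the plus strand), a secreted proteoglycan of tip cells, was at 2.15, 2.06 and 2.07 CPM across WT libraries, against 2.91, 2.82 and 2.85 CPM across 5C libraries. The genotypes did not overlap, with means of 2.10 ± 0.0488 and 2.86 ± 0.0465 CPM (SD, n = 3 each). Behind them were 41, 24 and 13 WT counts and 48, 33 and 40 5C counts, too few for so small a spread to measure precision. 5C was higher by 0.44 on the log2 scale, or 1.36-fold, with a 95% interval of 0.01 to 0.87 and with an unadjusted p of 0.0448 (adjusted p 0.781) in edgeR's quasi-likelihood test. The log2 difference remained between 0.43 and 0.47 whichever library was left out, with unadjusted p-values of 0.0773 to 0.0985 in that test. With offsets for GC content the unadjusted p in that test was 0.0604, and DESeq2 without offsets gave 0.236.

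*Egfl7*, the matrix protein gene of endothelium that hosts *Mir126a*, averaged 55.9 ± 6.64 CPM over WT and 56.7 ± 1.77 CPM over 5C libraries (SD, n = 3 each), giving a log2 fold change of 0.02. It shares 337 of its 3581 exon bases with *Gm20532* and *Mir126a* on the same strand. *Nos3*, the endothelial nitric oxide synthase, averaged 10.98 ± 0.972 CPM over WT and 9.78 ± 0.961 CPM over 5C libraries (SD, n = 3 each), giving a log2 fold change of -0.17 with a standard error of 0.14. Of its 4132 exon bases, 1334 lie under a gene on the opposite strand.

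Other endothelial genes, fixed as a list of 25 of which 22 were tested, were split in a similar way. Of these, 9 were lower and 13 higher, and their median log2 fold change was 0.05. The sialomucin gene *Podxl* was the 1 with an unadjusted p under 0.05 in edgeR's quasi-likelihood test, against 6.02% of all tested genes. The median was -0.0031 without 5C library 1, -0.0069 with both libraries numbered 2 left out and between 0.01 and 0.08 without any other single library. *Podxl* was at 149.7, 87.8 and 125 CPM across WT libraries, against 92.3, 84.4 and 95.8 CPM across 5C libraries, so that WT library 2 lay within 5C, and its log2 fold change of -0.41 had an unadjusted p of 0.0284 (adjusted p 0.781). *Myct1*, an endothelial membrane protein, averaged 3.17 ± 0.226 CPM in WT and 4.24 CPM in 5C without overlap, a log2 fold change of 0.41 (unadjusted p 0.0653). Lymphatic genes were lower in 5C in 5 of 6 cases, endocardial genes in 4 of 5 (median -0.03), and genes of haemogenic endothelium in 1 of 4. None had an unadjusted p under 0.05 in edgeR's quasi-likelihood test, against 6.02% of all tested genes. Only 2 of 5 endocardial genes were lower without 5C library 1, without WT library 2, or with both libraries numbered 2 left out. Leaving out both libraries numbered 2 gave 3 of 4 haemogenic genes lower, and lymphatic genes were lower in 4 to 6 of 6 cases in all left-out fits. The lymphatic receptor *Lyve1*, also made by macrophages and yolk sac vessels, was at 9.29, 1.37 and 1.76 CPM across WT libraries, against 1.58, 2.13 and 2.99 CPM across 5C libraries, and its single high value was in WT library 1. Over the 10 related lists, 98 of 103 genes were tested, and 53 were lower and 45 higher. Of the 98, 6 had an unadjusted p under 0.05 in edgeR's quasi-likelihood test, against 6.02% of all tested genes.

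Markers of other cell types that the embryos could hold were read beside these genes. The 5 platelet and megakaryocyte markers tested were all higher in 5C (median log2 fold change 0.36) and summed to 18.98 to 30.5 CPM in WT and 28.7 to 31.6 CPM in 5C. Of the 5, 1 had an unadjusted p under 0.05 in edgeR's quasi-likelihood test, against 6.02% of all tested genes: *Pf4*, at 0.035 (adjusted p 0.781). The lowest platelet sum was in WT library 2, and that of WT library 3, 30.5 CPM, lay inside the 5C range. The platelet median was 0.25 without WT library 2 and 0.23 without WT library 1. Macrophage markers were higher in 7 of 8 cases, with a median of 0.12 that became -0.04 without WT library 2 and 0.34 without WT library 1, and summed to 43.1 to 70.2 CPM in WT and 48.1 to 59.9 CPM in 5C. Erythroid markers summed to 9221 to 12620 CPM in WT and 8526 to 16360 CPM in 5C, with 2 of 9 lower, but 8 of 9 lower without 5C library 1 and 5 of 9 without WT library 2. Trophoblast markers summed to 6.54 to 12.4 CPM in WT and 2.13 to 23.6 CPM in 5C. Markers of decidua and killer cells summed to 10.3 to 48.7 CPM in WT and 12.5 to 53.5 CPM in 5C. Of the latter, 5 were tested, and 3 were higher at an unadjusted p under 0.05 in edgeR's quasi-likelihood test, against 6.02% of all tested genes. All 8 yolk sac endoderm markers were lower in 5C, with a median of -2.24, which rested on WT library 1: without it the median was 0.81, with 0 of 7 tested markers lower, and without 5C library 3 it was -5.23. *Apob*, at 1645 CPM in WT library 1 and 269 CPM in 5C library 3, was 15.3 to 118 CPM in the other libraries. The part of these tissues in the endothelial values was not tested.

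Base composition moved with the direction of the endothelial genes. Across the 37 genes, which are not independent replicates and share the same 6 libraries, genes richer in GC had lower log2 fold changes (Spearman rho -0.292), and over 16770 tested genes rho was -0.312. The relation was not even along the range, with rho of -0.449 among the 18 endothelial genes below their median GC content and 0.277 among the 19 at or above it. Of the genes at or above that median, 52.1%, 12 were lower in 5C, and of those below it 6 were. GC content was also fitted as an offset in each library over all tested genes, which removes such a trend by construction. With these offsets rho was 0.0282 over the endothelial genes, 17 of 37 were lower and the median log2 fold change was 0.02. *Cdh5*, *Tie1*, *Plvap* and *Ephb4* then went from below 0 to above it, *Calcrl*, *Nr2f2* and *Angpt1* from above 0 to below it, and no endothelial gene had an unadjusted p under 0.05 in edgeR's quasi-likelihood test, where 4.81% of all genes did.

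**Figure D5:**
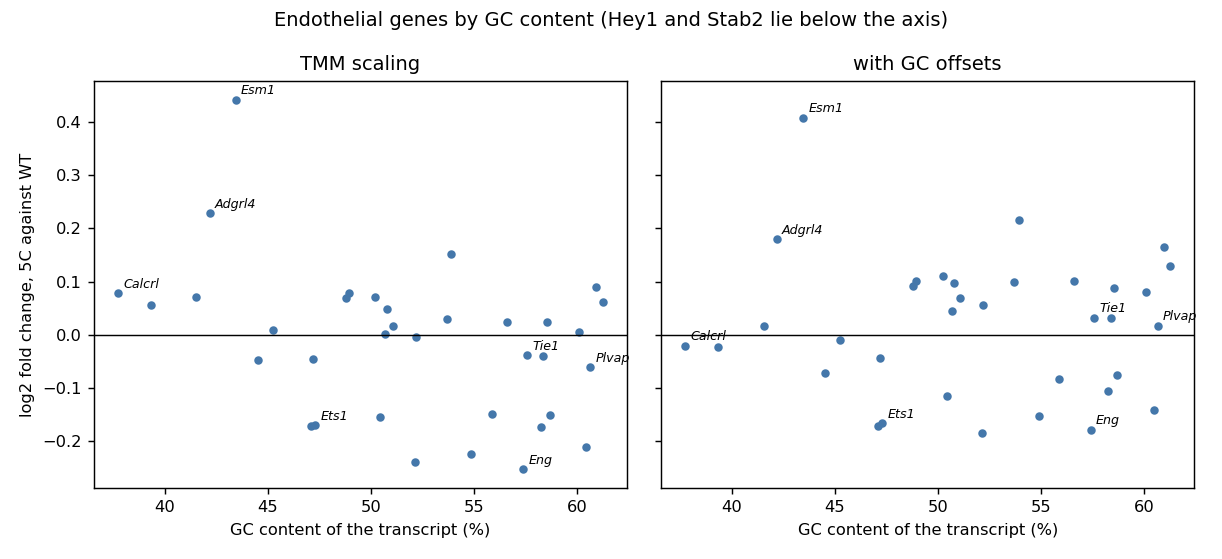
Log2 fold change of 5C against WT by GC content of the transcript in percent, for the endothelial genes under TMM scaling (left) and with GC offsets (right), where *Hey1* and *Stab2* lie below the plotted range. The downward slope on the left, with *Adgrl4* and *Esm1* at low and *Eng* at high GC content, is absent on the right. The offsets were fitted to remove such a trend.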

How the data were processed

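RNA-seq of whole E10.5 embryos was analysed for 3 WT and 3 5C libraries, each a pool of 2 male embryos per the study's methods. The authors made poly(A)-selected stranded libraries, sequenced them single-end, aligned the reads with STAR to GRCm38 (Ensembl) and deposited raw gene counts, without normalization or filtering. The strand setting of the counting is not given in the sources used here. Reads under exons of more than 1 gene may be lost, so genes with shared exons are uncertain. Symbols, exons, 3′ UTRs and GC content came from GENCODE M21 of GRCm38, in which 55141 of 55401 identifiers were found. MicroRNA and promoter sequences came from RefSeq.

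Totals ranged from 6357343 to 19151368 counts, with a common biological coefficient of variation of 13.6%. Counts were filtered by filterByExpr, scaled by TMM over the genes kept and tested across all genes with edgeR 4.0.16 (quasi-likelihood F-test, legacy form) in R 4.3.3, two-sided, with Benjamini-Hochberg adjustment. CPM values use these scaled totals. The standard error is the size of the log2 fold change divided by the square root of F, and intervals are 95%. Genotype and replicate number came from the sample titles. The members and lists were chosen with earlier results of these data known.

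Library values were given by rule for *Pecam1*, *Cdh5*, *Tek*, *Tie1*, the 3 highest and 3 lowest genes per exon length, genes with an unadjusted p under 0.05, genes whose genotypes did not overlap, the gene under the filter and the paired genes. From each further list at most 2 genes with the smallest p were named. *Xist*, *Ddx3y* and *Nrxn2* were named after their values were seen. Alternatives were DESeq2 1.42.0, limma 3.58.1 (voom), other scalings, filters and moderation, GC offsets, removal of globin and mitochondrial genes, a replicate block and single libraries left out. Leaving out both libraries numbered 2 was added after seeing the data. The methods were tested on simulated data.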

Additional observations from a re-analysis of the deposited data

How the results depend on the processing

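DEGs numbered 11 with DESeq2, 319 without a count filter, 3 with robust moderation and 0 to 1 with 1 library left out. Without a count filter 2 endothelial genes were DEGs, *Hey1* (adjusted p of 6.1e-30) and *Stab2* (adjusted p of 4.51e-05), and the cause was not tested. Endothelial genes at an unadjusted p under 0.05 numbered 0 with DESeq2, GC offsets, the replicate block, GC offsets with that block, or robust moderation, where 4.29%, 4.81%, 4.66%, 3.0% and 5.98% of all genes were, and 2 (5.41%) with at least 10 counts in every library, no filter, no globin and mitochondrial genes, or both libraries numbered 2 left out, against 6.5%, 6.55%, 6.09% and 5.11%. With 1 library left out they numbered 0 to 5, against 2.62% to 10.4% of all genes. After subtraction of genotype means, WT and 5C libraries of equal number correlated at -0.174, 0.202 and -0.166, and those of unequal number at -0.199 to 0.307. With 3 libraries per genotype these values cannot show whether equal numbers share a litter. The replicate block gave 0 DEGs and 782 genes at an unadjusted p under 0.05. The median log2 fold change of the endothelial genes was -0.0727 without the libraries numbered 2 and -0.0517 to 0.0225 with 1 library left out.

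Of 666 results of single endothelial genes under an alternative, 592 kept sign and call, 2 passed the threshold (those above) and 72 changed sign, in genes whose change was small except for *Hey1*. With GC offsets the log2 fold changes that changed sign were 0.0565 (*Cdh5*), 0.0318 (*Tie1*), 0.0168 (*Plvap*), 0.0305 (*Ephb4*), -0.0205 (*Calcrl*), -0.0097 (*Nr2f2*) and -0.0236 (*Angpt1*). With GC offsets and the replicate block they were 0.0591, 0.0330, 0.0174, 0.0332, -0.0201, -0.0067 and -0.0306 for the same genes. Without the libraries numbered 2 they were -0.0727 (*Esam*), -0.0610 (*Erg*), -0.13 (*Sox7*), -0.0532 (*Sox18*), -0.0741 (*Ramp2*), -0.0090 (*Calcrl*), -0.10 (*Nr2f2*), -0.0468 (*Acvrl1*), -0.0028 (*S1pr1*) and -0.0357 (*Aplnr*). *Cdh5* gave 0.0111 with library size alone, 0.0081 without a count filter and 0.0015 with the block. *Ramp2* gave -0.0004 without globin and mitochondrial genes and -0.0003 with the block, and *Esam* gave -0.0003 with limma-voom. *Aplnr* gave -0.0067 (DESeq2), -0.0041 (RLE scaling), -0.0041 (at least 10 counts), -0.0124 (limma-voom) and -0.0049 (no globin and mitochondrial genes). With 1 library left out the log2 fold change ran from -0.12 to 0.0945 (*Cdh5*), -0.0881 to 0.0349 (*Tie1*), -0.0454 to 0.18 (*Esam*), -0.0242 to 0.11 (*Erg*), -0.10 to 0.0225 (*Fli1*), -0.15 to 0.22 (*Sox7*), -0.0517 to 0.38 (*Sox18*), -0.0726 to 0.11 (*Egfl7*), -0.18 to 0.0856 (*Plvap*), -0.0458 to 0.0676 (*Ramp2*), -0.0074 to 0.19 (*Calcrl*), -0.0025 to 0.15 (*Notch4*), -0.16 to 0.0600 (*Ephb4*), -0.0746 to 0.0760 (*Nr2f2*), -0.0712 to 0.16 (*Acvrl1*), -0.0507 to 0.17 (*Angpt1*), -0.17 to 0.15 (*Angpt2*), -0.0671 to 0.0329 (*Aplnr*) and -1.57 to 0.21 (*Hey1*).

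With 3 pools per genotype, the lowest levels rest on few counts (13 for *Esm1* in WT library 3). WT library 3, which sets the *Hey1* value, is the shallowest, but *Hey1* had 1273 counts there.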

Other observations

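The list drawn up for mural cells, the pericytes and smooth muscle that wrap the endothelial tube, gave the lowest median of the 10 related lists. Of the 12 genes on that list 9 were lower in 5C and 3 higher, and the median log2 fold change was -0.20. In edgeR's quasi-likelihood test 3 of the 12, all lower, had an unadjusted p under 0.05, against 6.02% of all tested genes. The summed level of the 12 genes was 448.2 to 485.5 CPM in WT and 393.7 to 427.5 CPM in 5C. *Acta2*, the smooth muscle actin gene, was at 95.2, 92.9 and 87.1 CPM across WT libraries, against 69.9, 66.5 and 75.2 CPM across 5C libraries, without overlap, and 5C differed by -0.38 ± 0.07 (SE) on the log2 scale, with an unadjusted p of 0.000518 (adjusted p 0.781). It lay between -0.43 and -0.34 whichever library was left out and was -0.35 with GC offsets. *Tagln*, another contractile gene, was at 43.8, 48.0 and 42.1 CPM across WT libraries, against 35.5, 38.9 and 33.9 CPM across 5C libraries, also without overlap, and differed by -0.31 on the log2 scale, with an unadjusted p of 0.00614 (adjusted p 0.781). The median of the list was -0.05 without 5C library 3. Both genes are also expressed in embryonic heart muscle, and the list is not confined to genes made by mural cells alone. The cells behind these values were therefore not identified.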
